A study of Mus musculus with 6 samples.

Results

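AMPA-type glutamate receptors carry most fast excitatory transmission in the brain, and TARPs (transmembrane AMPA receptor regulatory proteins) are auxiliary subunits that travel with them. Their transcripts were followed here in mouse cerebellum through 8 genes: Gria1, Gria2, Gria3 and Gria4, which encode the pore subunits GluA1 to GluA4, and Cacng2, Cacng4, Cacng5 and Cacng7, which encode TARPs. The members were all probe sets that the platform annotation assigns to exactly 1 gene symbol, that symbol being one of these genes. All 8 genes, of 18193 measured, were found, by 19 of 45037 probe sets, 10 for the pore subunits and 9 for the TARPs. The arrays compared cerebellum of 3 transgenic mice carrying daDREAM with cerebellum of 3 wild-type mice, on Affymetrix GeneChip mouse genome expression arrays with 1 biological replicate per array. No age, strain or sex is given in the sources used here, nor the promoter that drives the transgene. DREAM, the product of Kcnip3, is a calcium sensor that binds DNA as a repressor of transcription, and daDREAM is a mutant form that represses irrespective of calcium. The comparison asks whether its presence goes with other transcript levels.

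An AMPA receptor is a tetramer of GluA subunits. GluA2 decides its calcium permeability, since edited GluA2 in the tetramer keeps calcium out. In the cerebellum, Purkinje cells and granule cells make receptors that contain GluA2, while Bergmann glia, the radial astrocytes around Purkinje cells, are known for calcium-permeable receptors of GluA1 and GluA4. TARPs such as stargazin, the product of Cacng2, bring the receptor to the membrane, anchor it at the synapse through scaffold proteins and slow its closing. Stargazin is named after the ataxic stargazer mouse, whose granule cells lack AMPA receptors at the synapse.

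DREAM binds a downstream regulatory element whose core is spelled GTCA. Promoters of 5 of the 8 genes, Gria2, Gria4, Cacng2, Cacng5 and Cacng7, were matched by symbol in the RefSeq table of build GRCm38.p6, as 6 windows of 250 bases before an annotated start. The core, read on both strands, was present in 2 of the 6 windows, both of Cacng5, and in 80.2% of the 32851 windows of this length in the table. Only bases before the start were read, so a core after the start was not looked for in any gene. The windows of Gria2, Cacng2 and Cacng7 lie inside the annotated gene, before a start that is not its outermost. On the minus strand, Gria2 reaches 80804227 and Cacng2 reaches 78120220, beyond their windows. On the plus strand, Cacng7 begins at 3332027, ahead of its window from 3332575. Bases before the outermost start of these genes were not read. The Cacng5 window from 107911363 also lies inside its gene. Windows of Gria2, Cacng2 and Cacng5 are shown, the first for the subunit that sets calcium permeability and the others for a window without the core and one that holds it 3 times. Letters run 5′ to 3′ on the gene's strand, and capitals mark the core, as GTCA or, from the opposite strand, TGAC. These letters are also part of other motifs, such as the AP-1 and CRE sites, and a match describes the sequence and no binding.
Gria2, chr3:80802836-80803085, minus strand: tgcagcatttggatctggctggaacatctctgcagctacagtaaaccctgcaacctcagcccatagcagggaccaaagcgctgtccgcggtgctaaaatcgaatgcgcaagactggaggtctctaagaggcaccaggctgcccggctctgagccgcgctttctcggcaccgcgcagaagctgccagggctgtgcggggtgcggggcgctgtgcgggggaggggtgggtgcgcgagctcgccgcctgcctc
Cacng2, chr15:78119281-78119530, minus strand: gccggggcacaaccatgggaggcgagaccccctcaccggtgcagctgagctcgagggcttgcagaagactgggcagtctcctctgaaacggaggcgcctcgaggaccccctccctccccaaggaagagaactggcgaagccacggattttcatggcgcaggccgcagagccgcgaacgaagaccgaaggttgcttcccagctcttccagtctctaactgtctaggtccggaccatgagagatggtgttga
Cacng5, chr11:107915056-107915305, minus strand: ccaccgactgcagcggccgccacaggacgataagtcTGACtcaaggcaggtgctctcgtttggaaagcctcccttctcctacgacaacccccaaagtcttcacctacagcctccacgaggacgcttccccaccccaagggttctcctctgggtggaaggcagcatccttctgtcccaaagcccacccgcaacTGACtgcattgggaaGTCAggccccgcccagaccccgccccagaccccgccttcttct

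Values are log2 expression values from RMA, as deposited, and every difference is daDREAM minus wild type in log2 units. Levels of different probe sets cannot be set against each other, because probes differ in how well they bind. The arrays were not equally alike: daDREAM replicates 1 and 3 were the least correlated pair across probe sets (Pearson r = 0.973, a description, since probe sets are not independent). The interquartile range was 3.49 in daDREAM replicate 1, the widest, and 2.97 in daDREAM replicate 3, the narrowest. The spike-in transcripts that check hybridization, read by 18 probe sets, averaged 10.03 ± 0.51 in daDREAM and 9.15 ± 0.28 in wild type (SD, n = 3 each, 2-sided exact permutation p = 0.2). Kcnip3 itself, by 2 probe sets, differed by 0.10 and 0.11 with no call, and whether either probe set reads the transgene is not known here. Member results without daDREAM replicate 1, and with the level of the spike-in transcripts as a covariate, are given further below.

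None of the 19 member probe sets passed the test between daDREAM and wild type. The smallest adjusted p among them was 0.998 (limma, Benjamini-Hochberg over all probe sets), and over the array 0 of 45037 probe sets passed (0%), also with a trended and robust variance prior. At an unadjusted p under 0.05 there was 1 member, a Gria4 probe set, against 1.81% of all probe sets. Of the 19 members 10 were lower in daDREAM, 8 were higher and 1 Gria2 probe set had equal means, where 47.3% of all probe sets were lower and 51.8% higher. The median difference of the members was -0.04, against 0.01 over all probe sets. The genotypes did not overlap at 1 member, which was higher in daDREAM, where 6.01% of all probe sets did not overlap (3.75% higher and 2.26% lower). Taken 1 probe set at a time and without adjustment, the 95% interval lay within a 2-fold change in either direction at 18 of the 19 probe sets. In whole tissue, fewer cells of a type and less RNA per cell cannot be told apart.

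**Figure D1:**
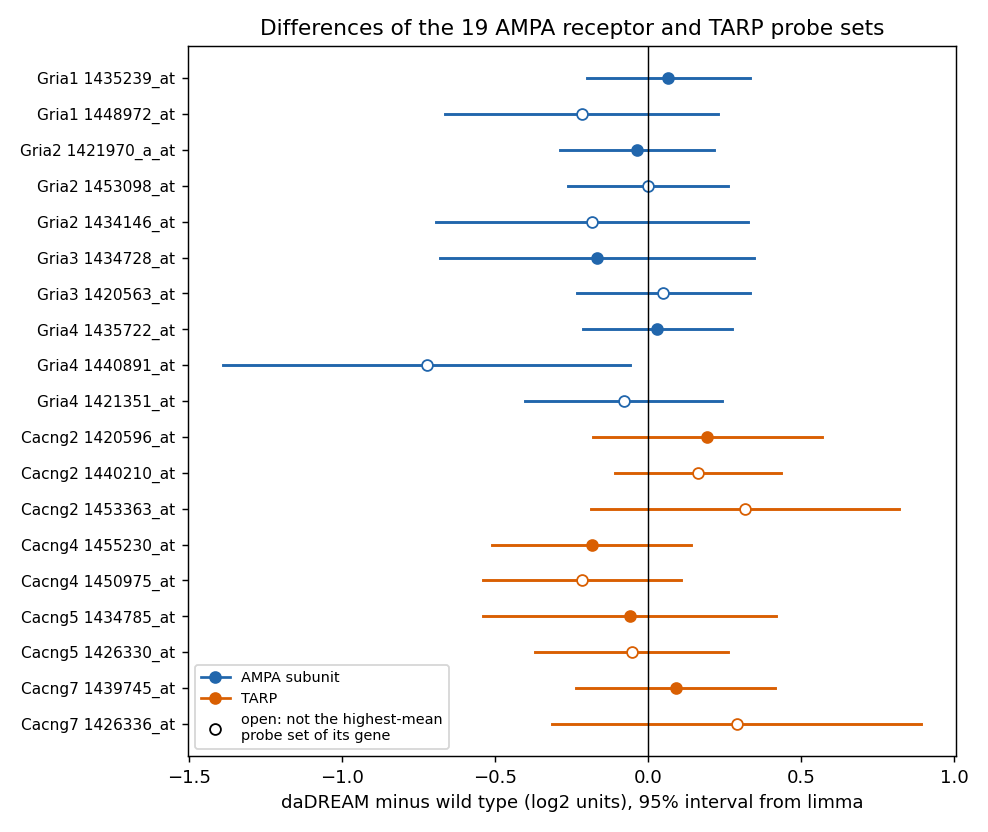
Differences between daDREAM and wild type for the 19 probe sets, in log2 units, with 95% intervals from limma (n = 3 arrays per genotype). Filled points are the probe set with the highest mean of each gene, open points the others, and the interval of 1 probe set, Gria4 1440891_at, does not reach 0.

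Among the pore subunits, the probe set with the highest mean of each gene differed by 0.07, -0.04 and 0.03 for Gria1, Gria2 and Gria4. Gria2, whose product makes receptors calcium-impermeable, read 10.68, 10.81 and 10.73 in daDREAM and 10.77, 10.79 and 10.77 in wild type at 1421970_a_at. The daDREAM arrays lay on both sides of the wild-type ones, and the difference was -0.04 with a 95% interval from -0.29 to 0.21, a factor of 0.819 to 1.16. At 1453098_at Gria2 read 9.70, 9.62 and 9.52 in daDREAM and 9.66, 9.63 and 9.55 in wild type, with equal means and an interval from -0.26 to 0.26. Its remaining probe set, 1434146_at, read 9.45, 8.65 and 8.64 in daDREAM and 9.14, 9.19 and 8.96 in wild type. There daDREAM replicate 1 was above every wild-type array and the other daDREAM arrays below every one, so that the difference of -0.18 has a wide interval, from -0.69 to 0.33.

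Gria4 encodes GluA4, a fast-gating subunit of granule cells and Bergmann glia. Its probe set 1435722_at read 10.86, 10.85 and 10.86 in daDREAM and 10.82, 10.82 and 10.84 in wild type. This was the member without overlap, but the difference was 0.03 (interval -0.21 to 0.27), a factor of 1.02. At 1440891_at Gria4 read 8.18, 7.10 and 7.06 in daDREAM and 8.0, 8.39 and 8.12 in wild type. Replicates 2 and 3 of daDREAM were well below the wild-type arrays, and replicate 1 lay among them. The difference of -0.72, with an interval from -1.39 to -0.06, was the largest of the 19 and did not pass (limma unadjusted p = 0.0365, adjusted p = 0.998). The other probe set, 1421351_at, read 7.0, 7.03 and 6.81 in daDREAM and 6.94, 7.25 and 6.89 in wild type, a difference of -0.08 with overlap. The Gria4 probe sets differed in size and sign, and the result at 1440891_at was not shared by the others.

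Gria1 encodes GluA1, and it read 10.08, 9.94 and 9.93 in daDREAM and 9.96, 9.97 and 9.82 in wild type at 1435239_at, a difference of 0.07 (interval -0.20 to 0.33). At 1448972_at it read 8.99, 9.21 and 9.54 in daDREAM and 9.58, 9.68 and 9.13 in wild type. The groups overlapped widely there, the lowest wild-type array lying between daDREAM replicates 1 and 2, and the difference was -0.22 (interval -0.66 to 0.23). Gria3, on the X chromosome, encodes GluA3. It read 8.09, 7.33 and 7.30 in daDREAM and 7.80, 7.89 and 7.53 in wild type at 1434728_at, with a difference of -0.17 (interval -0.68 to 0.35). As at 1434146_at of Gria2, the wild-type arrays fell inside the gap between daDREAM replicate 1 and the other daDREAM arrays. The other Gria3 probe set, 1420563_at, read 7.22, 6.92 and 7.08 in daDREAM and 6.97, 7.05 and 7.05 in wild type, a difference of 0.05. For Gria1 and Gria3 the probe sets of 1 gene thus had opposite signs.

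**Figure D2:**
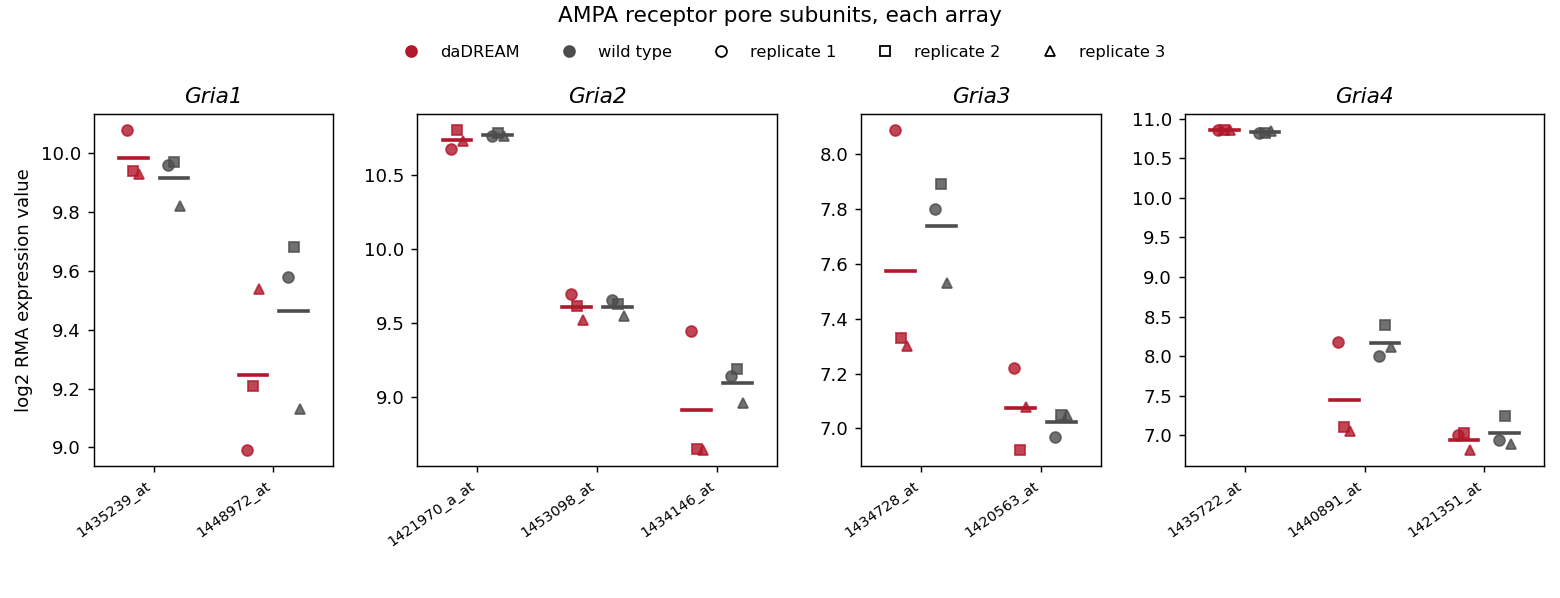
Log2 RMA values of the Gria1 to Gria4 probe sets on each array (symbols mark replicates 1 to 3), with daDREAM left of wild type and bars for the mean of 3 arrays. Each panel has its own scale. At 1434146_at, 1434728_at and 1440891_at daDREAM replicate 1 stands well above daDREAM replicates 2 and 3.

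TARPs are sorted into type I (Cacng2 and Cacng4 here), which have a PDZ-binding tail for the scaffold PSD-95, and type II (Cacng5 and Cacng7). Cacng2, or stargazin, was higher in daDREAM at each of its 3 probe sets and passed at none. It read 9.26, 9.84 and 9.67 in daDREAM and 9.43, 9.44 and 9.32 in wild type at 1420596_at, a difference of 0.19 (interval -0.18 to 0.57). Replicates 2 and 3 of daDREAM were above the wild-type arrays and replicate 1 below them. At 1440210_at it read 8.92, 8.98 and 9.0 in daDREAM and 8.82, 8.92 and 8.67 in wild type, a difference of 0.16 (interval -0.11 to 0.44), with daDREAM replicate 1 equal to the highest wild-type array. At 1453363_at it read 6.87, 7.49 and 7.72 in daDREAM and 6.92, 6.96 and 7.25 in wild type. The difference there was 0.32 (interval -0.19 to 0.82), with the same order of daDREAM arrays around the wild-type ones as at 1420596_at.

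Cacng4, the other type I member, was lower in daDREAM at both of its probe sets and passed at neither. It read 7.37, 7.52 and 7.68 in daDREAM and 7.65, 7.90 and 7.57 in wild type at 1455230_at. There daDREAM replicates 1 and 2 lay below the wild-type arrays and replicate 3 among them, a difference of -0.18 (interval -0.51 to 0.14). At 1450975_at it read 6.66, 6.69 and 6.94 in daDREAM and 6.81, 6.98 and 7.15 in wild type, a difference of -0.22 (interval -0.54 to 0.11; limma unadjusted p = 0.161), with the same array above the lowest wild-type value.

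Of the type II members, Cacng5 read 8.11, 7.44 and 7.42 in daDREAM and 7.80, 7.87 and 7.48 in wild type at 1434785_at, a difference of -0.06 (interval -0.54 to 0.42). Its other probe set, 1426330_at, read 6.28, 6.28 and 6.56 in daDREAM and 6.50, 6.52 and 6.26 in wild type, a difference of -0.05. Both small differences stood on overlapping arrays. Cacng7 read 8.22, 8.57 and 8.62 in daDREAM and 8.47, 8.37 and 8.30 in wild type at 1439745_at, a difference of 0.09 (interval -0.24 to 0.42). At 1426336_at it read 6.21, 6.48 and 6.0 in daDREAM and 6.18, 6.32 and 5.32 in wild type, a difference of 0.29 that came down to -0.02 without wild-type replicate 3, the lowest array.

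**Figure D3:**
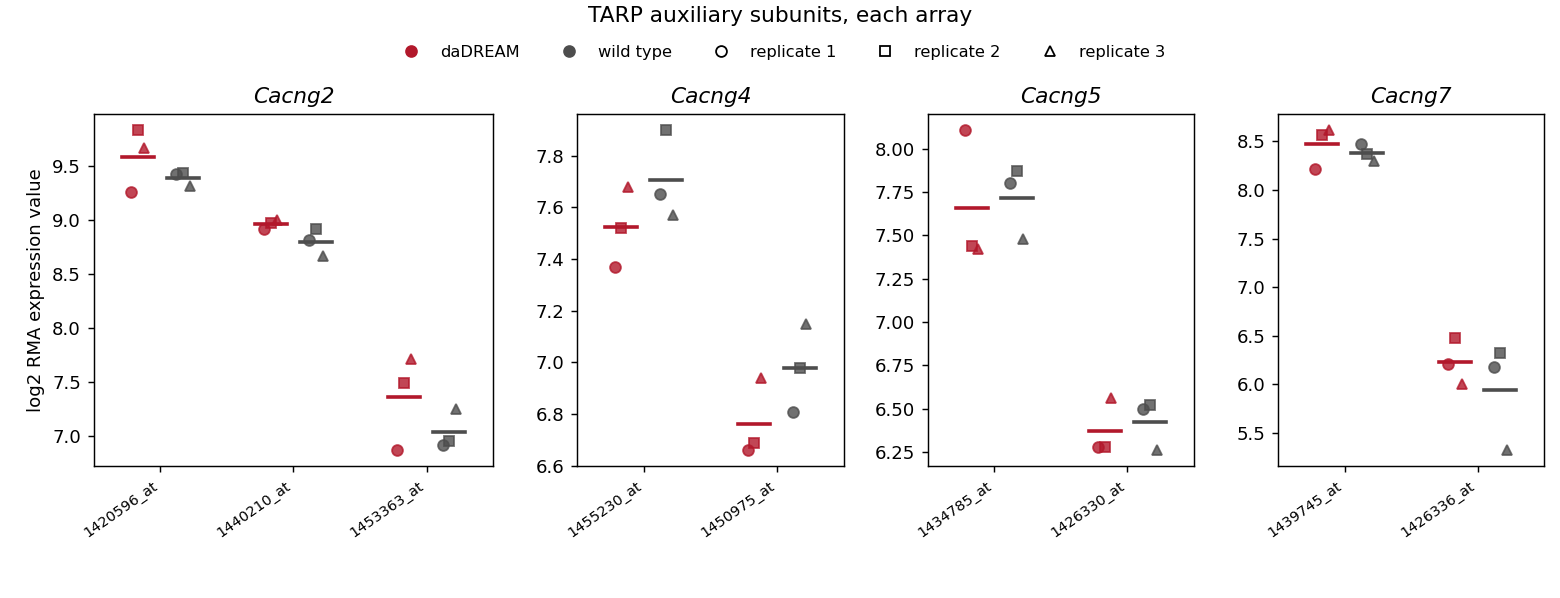
Log2 RMA values of the Cacng2, Cacng4, Cacng5 and Cacng7 probe sets on each array (symbols mark replicates 1 to 3), with daDREAM left of wild type and bars for the mean of 3 arrays. Each panel has its own scale. All 3 Cacng2 probe sets have a higher mean in daDREAM and both Cacng4 probe sets a lower one, with overlapping arrays in each case.

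Some probe sets of different genes had similar profiles over the arrays, a pattern picked out after the values were seen. Centred on its own mean of the 6 arrays, 1434146_at of Gria2 stood at 0.445, -0.355 and -0.365 in daDREAM and at 0.135, 0.185 and -0.045 in wild type. The nearest member to it was 1434728_at of Gria3, at a root-mean-square distance of 0.041 over the 6 arrays, and the nearest to 1434785_at of Cacng5 was again 1434728_at, at 0.064. In these and in 1440891_at of Gria4, daDREAM replicate 1 was high and daDREAM replicates 2 and 3 low. Both 1420596_at and 1453363_at of Cacng2, and 1439745_at of Cacng7, ran the other way, lowest in daDREAM replicate 1 and highest in daDREAM replicates 2 and 3.

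Control probe sets for the 3′ and 5′ ends of actin, a measure of RNA integrity and labelling, followed some of these profiles. Their log2 difference, 3′ minus 5′, was 0.96, 0.58 and 0.63 in daDREAM and 0.79, 0.79 and 0.78 in wild type. The same difference for Gapdh was 0.25, 0.01 and 0.08 in daDREAM and 0.25, 0.29 and 0.12 in wild type. For actin, daDREAM replicate 1 was thus the highest array and daDREAM replicates 2 and 3 the lowest, as at 1434146_at of Gria2. For Gapdh, daDREAM replicates 2 and 3 were the lowest arrays too, while daDREAM replicate 1 equalled wild-type replicate 1 and lay below wild-type replicate 2. Against control probe sets for the middle of the transcript, actin stood at 1.05, 0.77 and 0.84 in daDREAM. It stood at 0.89, 1.0 and 0.82 in wild type, so that wild-type replicate 3 lay below daDREAM replicate 3. Gapdh stood at 0.30, 0.02 and 0.03 in daDREAM and 0.24, 0.24 and 0.18 in wild type by the same measure. The part of RNA integrity in the member differences was not tested.

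**Figure D4:**
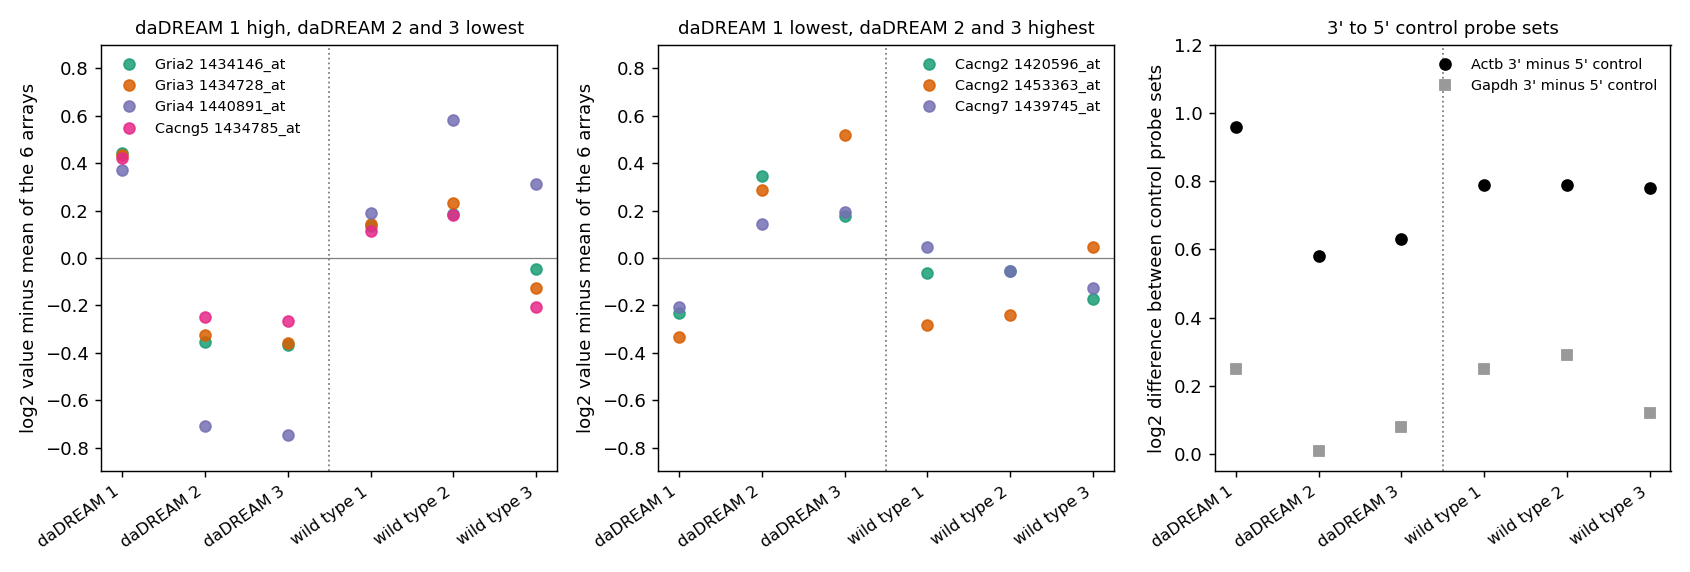
Log2 values of 7 member probe sets on each array, centred on their mean over the 6 arrays (left and middle), and log2 differences between 3′ and 5′ control probe sets of actin and Gapdh (right). The probe sets on the left are high in daDREAM replicate 1 and low in daDREAM replicates 2 and 3, those in the middle are lowest in daDREAM replicate 1, and both controls are lowest in daDREAM replicates 2 and 3, with actin at 0.96 in daDREAM replicate 1 and 0.58 in daDREAM replicate 2.

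Without daDREAM replicate 1, 5 of the 19 members had an unadjusted p under 0.05 and none passed (limma adjusted p from 0.215 to 0.242), while 16.1% of all probe sets had such a p. Gria4 1440891_at then differed by -1.09, Gria2 1434146_at by -0.45, Gria3 1434728_at by -0.425, Cacng2 1453363_at by 0.56 and Cacng2 1420596_at by 0.36. Spread was larger among daDREAM than among wild-type arrays at 11 of the 19 members, where 69.6% of all probe sets had a larger SD in daDREAM.

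The balance between subunits was measured within each array, where a value common to both genes cancels. Gria2 minus Gria1 was 0.60, 0.87 and 0.80 in daDREAM and 0.81, 0.82 and 0.95 in wild type, a difference of -0.10 (2-sided exact permutation p = 0.4, adjusted p = 0.8). Gria2 minus Gria4 was -0.18, -0.04 and -0.13 in daDREAM and -0.05, -0.03 and -0.07 in wild type, a difference of -0.07 (exact permutation p = 0.3, adjusted p = 0.8). Gria2 minus Gria3 was 2.59, 3.48 and 3.43 in daDREAM and 2.97, 2.90 and 3.24 in wild type, a difference of 0.13 (exact permutation p = 0.8, adjusted p = 1). In type I minus type II TARPs the means were 0.49 ± 0.30 in daDREAM and 0.50 ± 0.09 in wild type (SD, n = 3 each), a difference of -0.01 (exact permutation p = 1). All 4 contrasts overlapped between genotypes, and 3 arrays against 3 cannot give a p below 0.1. With the mean of all probe sets of each gene, the contrasts of Gria2 with Gria1, Gria3 and Gria4 turned sign, to 0.0017, -0.015 and 0.18.

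The member probe set that varied most over the 6 arrays was 1440891_at of Gria4 (SD 0.58). Among 9377 genes with a mean of at least 6, the centred profiles nearest to it were those of Fam204a, Cdk13, which encodes a transcriptional kinase, and Taf13, which encodes a subunit of the general factor TFIID. Their root-mean-square distances from it over the 6 arrays were 0.13, 0.17 and 0.18. Taf13 read 8.31, 7.73 and 7.40 in daDREAM and 8.43, 8.56 and 8.30 in wild type. As in Gria4 1440891_at, daDREAM replicate 1 lay among the wild-type arrays and the other daDREAM arrays below them.

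Partner genes of the receptor were also without a call. Of 45 listed genes 42 were measured, 19 higher and 23 lower in daDREAM (54.8% lower, against 48% of all genes), with a median of -0.015 against 0.0067 over all genes. None passed limma and none had an unadjusted p under 0.05, where 0% and 1.42% of genes did. Without daDREAM replicate 1, 9 of the 42 had such a p and none passed, where 16.1% of all probe sets had one. The genotypes did not overlap in 5 of the 42, where 5.59% of genes did not overlap.

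Among the other gamma subunits, Cacng8 and Cacng3 encode type I TARPs of the forebrain. Cacng8 read 5.42, 5.69 and 5.97 in daDREAM and 5.26, 5.37 and 5.49 in wild type, a difference of 0.32 (interval -0.05 to 0.69), with overlap at 1 array pair. Cacng3 read 5.59, 5.37 and 5.44 in daDREAM and 5.35, 5.24 and 5.25 in wild type, without overlap, a difference of 0.19 (interval -0.08 to 0.46). Forebrain neuron markers, of which 2 of 5 measured genes had a mean level under 5, had 4 of the 5 higher, with Rgs9 at 0.24. These markers had an array mean of 5.34 to 5.61 in daDREAM and 5.38 to 5.43 in wild type. Their part in these values was not tested.

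Other auxiliary subunits had 3 of 8 genes higher, among them the cornichons Cnih2, at 0.16, and Cnih3, at 0.13 (mean level under 5), which help the receptor leave the endoplasmic reticulum. Of 6 biogenesis genes 4 were lower. Frrs1l, needed for receptor assembly in the endoplasmic reticulum, differed by -0.11, with 10.76, 10.71 and 10.59 in daDREAM all below 10.77, 10.81 and 10.82 in wild type, and Cpt1c differed by 0.13. Scaffold and trafficking genes had 7 of 15 higher. Rab11a, of the recycling endosomes that return receptors to the surface, differed by -0.27 (interval -0.62 to 0.08) and Grip1, a scaffold that binds GluA2, by 0.26 (interval -0.13 to 0.66; mean level under 5).

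Extracellular organisers had 3 of 7 genes higher, with the secreted olfactomedins Olfm3 at -0.37 (interval -0.76 to 0.01; limma unadjusted p = 0.0553) and Olfm2 at 0.31. Olfm3 read 9.69, 9.22 and 9.09 in daDREAM and 9.66, 9.76 and 9.70 in wild type, so that here too daDREAM replicate 1 stood with the wild-type arrays. Adarb1 encodes the enzyme that edits Gria2 RNA at the site that blocks calcium. It read 8.84, 8.94 and 8.83 in daDREAM and 8.68, 8.75 and 8.70 in wild type, without overlap, a difference of 0.16 (interval -0.09 to 0.41; limma adjusted p = 0.998). The related Adar differed by -0.02. Editing itself is not measured by these arrays.

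**Figure D5:**
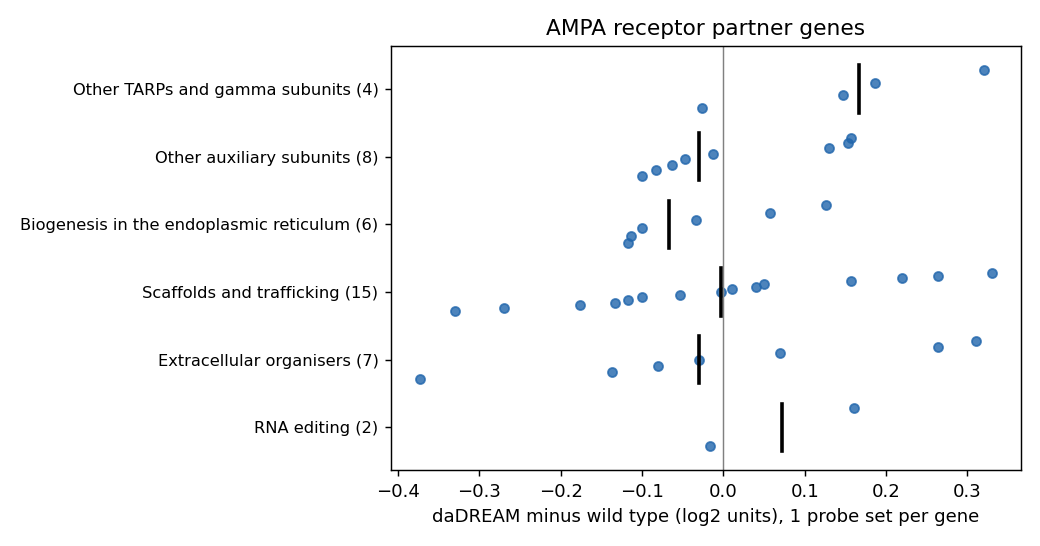
Differences between daDREAM and wild type (log2 units) for 42 partner genes of AMPA receptors, 1 probe set per gene, grouped by role, with the number of measured genes in brackets and a bar at each median. Values lie between -0.37 (Olfm3) and 0.33 (Dlg4), on both sides of 0 in every group.

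Markers of the main cell types of the cerebellum had array means that overlapped between genotypes. The mean of 6 Purkinje cell markers ran from 11.52 to 11.66 in daDREAM and from 11.525 to 11.66 in wild type. Of these markers 2 were higher and 4 lower, with Ppp1r17 at -0.18. For 7 granule cell markers the mean ran from 10.62 to 10.67 in daDREAM and 10.54 to 10.64 in wild type. There 4 were higher, 2 lower and the remaining marker equal, with Barhl1 at 0.28. For 9 markers of Bergmann glia and astrocytes the mean ran from 10.10 to 10.41 in daDREAM and 10.18 to 10.37 in wild type. Of the 9, 4 were higher and 5 lower, with the gap junction gene Gja1 at -0.31. Oligodendrocyte precursor markers (3 of 4 lower, with Olig2 at 0.37), oligodendrocyte markers (2 of 3 higher, with Mag at 0.10) and interneuron markers (3 of 5 lower, with Kit at -0.21) overlapped as well.

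Marker lists of tissue at the borders of the cerebellum had array means that did not overlap between genotypes. Of 7 choroid plexus markers all were higher in daDREAM and 4 had an unadjusted limma p under 0.05, where 1.42% of all genes had one. Sostdc1 differed by 1.07, and the list had array means of 6.61 to 6.82 in daDREAM and 6.13 to 6.38 in wild type. All 4 measured brainstem markers were lower, led by Chat at -0.37, and 2 of the 4, Chat among them, had a mean under 5. The brainstem list had array means of 5.05 to 5.13 in daDREAM and 5.215 to 5.41 in wild type. None of these markers passed after adjustment. Their part in the receptor values was not tested.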

How the data were processed

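Cerebellar RNA of 3 daDREAM and 3 wild-type mice was hybridised to 6 arrays, and titles gave each array's genotype and number. For 45101 probe sets the authors deposited log2 values, made with RMA in the affy package per the submitters' processing notes. Their versions are unstated in these sources. RMA matches the probe distributions of all arrays, which hides shifts shared by most genes, and the values, from 2.46 to 13.8, carry no detection call. Precision is limited by how many arrays there are, with a median half-width of 0.35 log2 units for a 95% interval.

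After 64 control probe sets were left out, 45037 were fitted in limma 3.58.1 under R 4.3.3 (eBayes after lmFit, 2-sided, Benjamini-Hochberg over all probe sets, threshold 0.05), a procedure tested on simulated data. Gene symbols came from the platform annotation: 34945 probe sets had 1 symbol, 932 several and 9160 none, and no member shared a probe set with another symbol. Partner and marker genes were represented by the probe set of highest overall mean. Genes of these lists without a probe set of 1 symbol were not analysed here. Subunit balance was compared with exact permutation tests over 20 splits, adjusted over 4 contrasts.

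The text names every member probe set, both Kcnip3 probe sets, the 2 partner genes per subgroup and the 1 marker per cell type with the smallest unadjusted p, and the 3 genes nearest in profile to the most variable member with a mean of at least 6. Dlg4, in a caption, and Cacng1 and Cacng6, as neighbours of members, are outside that rule and were chosen after their values were seen. The members, lists and alternatives were chosen with earlier results of these data known. Promoter sequences are from RefSeq, build GRCm38.p6. Alternatives were a replicate block, median centring, renewed quantile normalization, a robust and trended prior, a mean of at least 5, the hybridization control level as a covariate, each array left out, and other ways to choose a gene's probe sets.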

Additional observations from a re-analysis of the deposited data

How the results depend on the processing

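No member probe set and no partner gene passed under any alternative that was run, and neither did any other probe set. The replicate block gave 0 calls, with 1 member and 1093 probe sets in all at an unadjusted p under 0.05. The labels give replicate numbers and do not say whether these pair the mice. Deviations of same-numbered arrays correlated at 0.12, -0.28 and 0.32 across probe sets, and daDREAM replicate 1 was most like wild-type replicate 2, at 0.49. Such correlations cannot settle whether the mice were paired. Renewed quantile normalization, median centring and the trended prior turned no member's sign, all 19 members had a mean of at least 5. No member probe set ends in _x_at or _s_at, so leaving such probe sets out could not change a member. At an unadjusted p under 0.05, all probe sets numbered 817 in the main analysis and from 324 to 7254 when 1 array was left out, the highest without daDREAM replicate 1. That count was 1361 after quantile normalization, 478 at a mean of at least 5 and 10471 when the level of the hybridization controls entered as a covariate.

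With that covariate, which partly follows genotype, 8 members turned sign: Gria2 1434146_at to 0.48, Gria3 1434728_at to 0.525, Gria4 1440891_at to 0.10 and 1421351_at to 0.11, Cacng2 1420596_at to -0.0782 and 1453363_at to -0.39, Cacng5 1434785_at to 0.58 and Cacng7 1439745_at to -0.14. None passed (limma adjusted p from 0.107 to 0.848), and the cause was not tested. Averaging the probe sets of a gene turned Gria1 to -0.075 and Gria4 to -0.26, which follows from their discordant probe sets, and the balance of Gria2 with Gria1, Gria3 and Gria4 to 0.0017, -0.015 and 0.18.

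With 1 array left out, differences ran through 0 for Gria2 1453098_at (-0.0433 to 0.0467), Gria3 1420563_at (-0.0233 to 0.1267), Gria4 1421351_at (-0.1483 to 0.0317), Cacng5 1434785_at (-0.2867 to 0.0583) and Cacng7 1426336_at (-0.02 to 0.48). They also did so for Gria2 minus Gria3 (-0.0267 to 0.42) and for type I minus type II TARPs (-0.10 to 0.16). Members lower in daDREAM then numbered 8 to 12. Of the 42 measured partner genes, 0 had an unadjusted p under 0.05 in the main analysis. The count was 1 each with the replicate block, quantile normalization and the trended prior. It was 9 without daDREAM replicate 1, where 16.1% of all probe sets had such a p. With the covariate it was 6, where 23.2% of all probe sets had one. Gria4 1440891_at ran from -1.09 without daDREAM replicate 1 to -0.53 without daDREAM replicate 3.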

Other observations

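Some TARP and other gamma subunit genes lie side by side in the RefSeq table of assembly GRCm38.p6, while Cacng2 and Cacng3 lie elsewhere. Cacng1, Cacng4 and Cacng5 follow each other on chromosome 11 and Cacng7, Cacng8 and Cacng6 on chromosome 7, with 0 other protein-coding genes between neighbours. Cacng1 encodes the gamma subunit of the skeletal muscle calcium channel and is no TARP. In the first group Cacng1 differed by 0.15, Cacng4 by -0.18 and Cacng5 by -0.06. In the second Cacng7 differed by 0.09, Cacng8 by 0.32 and Cacng6 by -0.03, each read at its brightest probe set. The other probe sets of Cacng8 and Cacng6 differed by 0.09 and 0.04, so that the sign of Cacng6 depends on the probe set, and none passed limma. Cacng1 and Cacng6 had means of 4.17 and 3.83 over the 6 arrays, below 5 and without a detection call.

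The array with the most extreme values of the members was daDREAM replicate 1, which alone was the highest of the 6 arrays at 6 of the 19 probe sets and the lowest at another 7. Wild-type replicate 1 was alone the highest at 0 and the lowest at 0. Ties, which occurred at Gria4 1435722_at, were left out. Extremes were not counted over all probe sets, where daDREAM replicate 1 also had the widest interquartile range, so they are not particular to the members.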
